A study of Mus musculus with 10 samples.

Results

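The genes described here are the liver X receptors (LXRs), the retinoid X receptors (RXRs) with which they form dimers, and genes of cholesterol efflux and membrane lipid handling that LXRs induce. The 8 genes, Nr1h2, Nr1h3, Rxra, Rxrb, Abca1, Abcg1, Lpcat3 and Arl4c, were chosen by name from the 27024 measured entries with a gene name. The difference between StcE and saline was already known when they were chosen, so their differences are given as a description without a test. The cells were bEnd.3, an immortalised line of mouse brain endothelial cells of wild-type genotype, grown in medium with serum. Of the 10 samples, 5 received saline (replicates 1, 2, 3, 4 and 5) and 5 received StcE at 5 nM (replicates 1, 2, 3, 5 and 6), and all were collected after 16 h. StcE is a bacterial protease that cleaves glycoproteins with mucin domains, and 0 of the samples received an inactive form of it. Levels are in FPKM, the fragments on a gene per kilobase of its length, scaled per sample. The scale followed a median-ratio size factor of the sample and differed from its fragment total by up to 1.45%. Between 23061883 fragments (StcE replicate 1) and 34951030 fragments (StcE replicate 5) per sample could be recovered from the deposited values.

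LXRs are nuclear receptors that bind oxysterols and other sterol ligands, and they act on DNA as a dimer with an RXR. When sterols are abundant in a cell, they induce transporters that pass cholesterol to lipoproteins, enzymes that remodel phospholipids, and the fatty acid synthesis program. Endothelial cells of the brain take part in the sterol exchange of the blood-brain barrier, where ABCA1 and ABCG1 serve as efflux transporters.

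The labelled cell type was checked against marker genes. All 10 endothelial markers were measured well above the minimum for testing, led by Cdh5, the gene of VE-cadherin, with 509.1 ± 25.9 FPKM (SD, n = 5) with saline and 462.7 ± 22.3 with StcE. Summed over the 10 markers, the saline samples held 1718.0 to 1867.2 FPKM and the StcE samples 1622.0 to 1731.8. The sums overlapped between the groups but lay lower with StcE, and whether this has a part in the differences given here was not tested. Of these markers, 5 were lower with StcE past the threshold (limma with Benjamini-Hochberg adjustment over 11062 genes, adjusted p under 0.05) and 0 higher, where 6.41% of all tested genes were lower and 5.52% higher. Their log2 differences were -0.24 for Tek, -0.23 for Flt1, -0.18 for Tie1, -0.12 for Erg and -0.11 for Pecam1. The calls of Erg and Pecam1 each depended on the samples and on the processing. Erg lost its call in 8 of the 10 fits that left out 1 sample, and so did Pecam1. With all 10 samples, both calls were lost with no filter, a mean FPKM of at least 0.1, upper quartile scaling or eBayes without trend. Over the alternatives the limma adjusted p was 0.01 to 0.15 for Erg and 0.018 to 0.23 for Pecam1. The other 3 calls held in all alternatives but the replicate block. Cdh5 was not past the threshold (limma adjusted p = 0.051) but passed it with total fragment scaling (0.042), robust eBayes (0.044) and voom (0.018), and Kdr passed it without StcE replicate 2 (0.049). Over the alternatives their adjusted p were 0.018 to 0.25 and 0.049 to 0.31.

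Macrophages express many LXR-induced genes at high levels, so their markers were examined too. The 5 measured macrophage and leukocyte markers summed to 20.3 to 22.2 FPKM in saline samples and to 18.4 to 21.5 in StcE samples. Nearly all of this was Cd68, a lysosomal protein gene, with a mean of 20.1 FPKM, and without it the sum was at most 1.49 FPKM in any sample. Lyz2, the lysozyme gene of macrophages, was at 1.07 ± 0.374 FPKM (SD, n = 5) in saline samples and 0.576 ± 0.137 in StcE samples, with overlap, on 13 to 46 fragments per sample, below the minimum for testing. Since 96.0% of its transcript has a near-identical copy in another gene, its level is uncertain. Ptprc, which encodes the pan-leukocyte protein CD45, had 0 or 1 fragments in each sample. The sums were 2.19 to 5.36 FPKM with saline and 2.88 to 4.61 with StcE for 6 mural cell markers (most abundant Acta2, mean 3.14), and 1.21 to 1.43 and 1.20 to 1.54 for 4 fibroblast markers (most abundant Pdgfra, mean 1.24). They were at most 0.115 FPKM for 4 astrocyte markers (most abundant Gfap) and at most 0.238 for 3 epithelial markers (most abundant Krt18, mean 0.159). Of these 22 markers 3 could be tested, and none of the 3 (Cd68, Acta2 and Pdgfra) was past the threshold, with limma adjusted p of 0.52, 0.85 and 0.44. None of the 27024 measured entries was at 0 in all 10 samples, so a measured marker could not be either. Adgre1, Rgs5, Lum and Cdh1 had no measured entry and were not analysed here.

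The DNA element through which LXR-RXR dimers act is a direct repeat of a 6-base unit with 4 bases between the copies, called DR4, whose ideal letters are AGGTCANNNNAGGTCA. The promoter windows of RefSeq (GRCm38.p6, 250 bases before to 50 bases after each start) were searched for it on both strands. A window was present for 7 of the 8 members, all but Abcg1. With at most 2 mismatches over the 12 repeat bases, the motif was in 3.02% of the 32851 windows, and 3.47% of the 27025 genes with a window had it. It was in 0 windows of the 19 genes with a window among the members and the listed LXR-induced genes. When 3 mismatches were allowed, a setting chosen after the sequences were seen, the motif was found for 24.5% of all genes with a window and for 6 of the 19 genes: Abca1, Arl4c, Rxra, Fasn, Srebf1 and Rnf145. A match at that setting is therefore common.

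The exact letters of the Abca1 match were counted as well. A fixed string is bound to be rarer than a motif with 3 mismatches, so nothing is read from its lower count. The letters of the Rxra, Arl4c and Rnf145 matches were not counted. Arl4c, also LXR-induced and lower in every StcE sample than in every saline sample, has matches that are not shown. Fasn, Srebf1 and Rnf145, which did not move in a single direction with StcE, are LXR-induced genes with letters like those of Abca1. The stretches below let the matches of these 3 genes be compared with that of Abca1. Each is 60 bases, read 5′ to 3′ on the plus strand, with the repeat units in capitals: chr4:53159925-53159984 for Abca1, chr11:120824735-120824794 for Fasn, chr11:60210616-60210675 for Srebf1 and chr11:44520175-44520234 for Rnf145. None of the 4 stretches overlaps an annotated exon.
Abca1: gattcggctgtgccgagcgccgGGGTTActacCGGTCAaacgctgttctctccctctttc
Fasn: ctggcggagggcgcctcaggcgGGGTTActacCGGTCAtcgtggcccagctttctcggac
Srebf1: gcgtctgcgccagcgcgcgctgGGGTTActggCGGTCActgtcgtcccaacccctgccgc
Rnf145: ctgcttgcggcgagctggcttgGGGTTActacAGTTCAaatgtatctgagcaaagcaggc

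The 16 bases of the Abca1 match, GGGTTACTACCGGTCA, are the same in Fasn, and on either strand they are in 2 of the 32851 windows, those of Abca1 and Fasn. With any 4 bases between the repeat units (GGGTTANNNNCGGTCA), the count was 3 windows, with Srebf1 as the third gene. Both searches were chosen after the sequences were seen. Srebf1 shares 14 of the 16 bases with Abca1 and all 12 repeat bases, and Rnf145 shares 14 of the 16 and 10 of the 12. The match begins 67 bases before the start of Abca1, 225 before that of Fasn and, for both Srebf1 and Rnf145, before a start that lies inside the gene, at 182 and 92 bases. The Rxra match also lies before a start inside the gene. These are matches of letters, and binding was not measured in these samples.

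**Figure D1:**
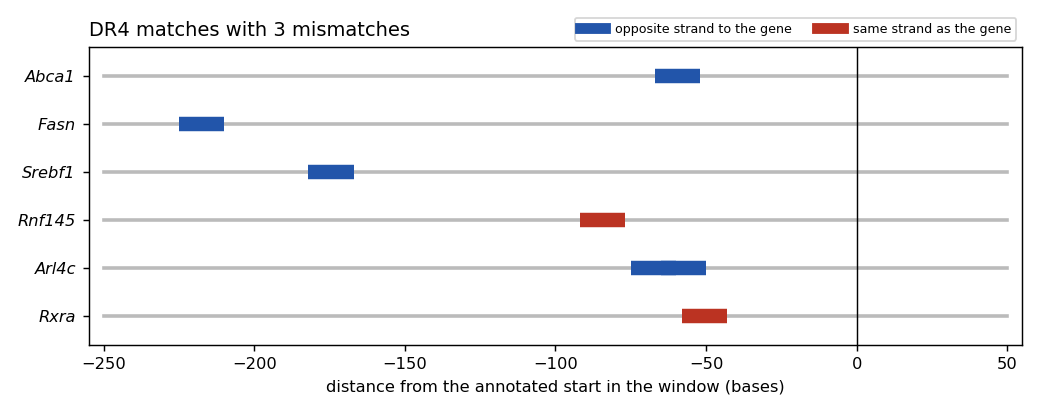
Position of each DR4 match with 3 mismatches in the promoter windows of 6 genes, as distance in bases from the annotated start in the window, which for Srebf1, Rnf145 and Rxra lies well inside the gene. Grey lines are the windows, blue bars are matches on the strand opposite to the gene and red bars matches on its own strand; the Abca1 match begins 67 bases before the start, the Fasn match 225 bases before it, and Arl4c has a pair of overlapping matches.

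Nr1h2, which encodes LXRβ, the broadly expressed LXR, lies on chromosome 7 (44549616 to 44553951, minus strand). Its level was 22.8, 19.9, 21.5, 22.5 and 20.7 FPKM in saline replicates 1 to 5, and 23.5, 21.8, 23.2, 22.2 and 22.7 FPKM in StcE replicates 1, 2, 3, 5 and 6. The groups overlapped, with 2 of the 5 StcE samples above every saline sample. The difference of log2(FPKM + 1), StcE minus saline, was 0.08 with a standard error of 0.0378. Of the 8 members it had the highest mean in both groups.

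Nr1h3, which encodes LXRα, the form abundant in liver and macrophages, lies on chromosome 2 (91184061 to 91202834, minus strand) and was near the limit of detection. Its level was between 0 and 0.0915 FPKM with saline and between 0.0144 and 0.0459 FPKM with StcE. These values rest on 0 to 7 fragments per sample, 13 in all with saline and 10 with StcE, so a difference was not detectable at this depth. It is the one member below the mean FPKM of 1 required for testing. Over the 10 samples the mean was 22.1 FPKM for Nr1h2 and 0.0316 for Nr1h3, so nearly all LXR transcript measured was that of LXRβ.

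Rxra, which encodes RXRα, a dimer partner of LXR and of many other nuclear receptors, lies on chromosome 2 (27676440 to 27762957, plus strand). In saline replicates 1 to 5 its level was 14.5, 13.7, 13.6, 14.8 and 13.0 FPKM. In StcE replicates 1, 3, 5 and 6 it was 10.5, 10.8, 11.5 and 11.7 FPKM, and StcE replicate 2 was the highest of its group but below all saline samples. The mean went from 13.9 ± 0.735 (SD, n = 5) to 11.3 ± 0.653 FPKM, 81.0% of the saline mean, a log2 difference of -0.28 with a standard error of 0.0435. In bulk RNA, fewer cells that express a gene and less of its RNA per cell cannot be told apart.

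Rxrb, which encodes RXRβ, lies on chromosome 17 (34031812 to 34038399, plus strand). Its level was 13.4 ± 0.627 FPKM (SD, n = 5) with saline and 12.5 ± 0.334 with StcE, and the groups overlapped. The log2 difference was -0.10 with a standard error of 0.0331. The level of Rxra relative to Rxrb therefore differed between the groups. Within samples, the ratio of Rxra to Rxrb was 1.08, 1.03, 0.995, 1.04 and 1.04 in saline replicates 1 to 5, and 0.853, 0.949, 0.857, 0.961 and 0.908 in StcE replicates 1, 2, 3, 5 and 6. The groups did not overlap in this ratio. Its size depends on the length used for Rxrb, whereas the separation of the groups does not. The ratio of Nr1h2 to Rxra also did not overlap, at 1.45 to 1.59 with saline and 1.82 to 2.25 with StcE. A ratio within a sample does not depend on how the sample was scaled.

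Abca1 encodes the transporter that passes cholesterol and phospholipid to apolipoprotein A-I, and lies on chromosome 4 (53030787 to 53159895, minus strand). In saline replicates 1 to 5 its level was 4.40, 3.86, 4.06, 4.57 and 3.26 FPKM. In StcE replicates 1, 2, 3, 5 and 6 it was 1.57, 1.49, 2.33, 1.85 and 2.65 FPKM. The groups did not overlap, but the lowest saline sample (replicate 5) and the highest StcE sample (replicate 6) came near each other. The StcE mean was 49.0% of the saline mean, and the log2 difference was -0.77 with a standard error of 0.109. The pseudocount of 1 understates this difference at so low a level: the log2 ratio of the means without it was -1.03. Between 382 and 1388 fragments per sample lay behind these values. Of the 11062 tested genes, 5 had a lower log2 difference.

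Abcg1 encodes a transporter that passes cholesterol to high density lipoprotein, and lies on chromosome 17 (31057675 to 31117988, plus strand). In saline replicates 1 to 5 its level was 18.7, 17.5, 17.3, 20.5 and 18.2 FPKM. In StcE replicates 1, 2, 3, 5 and 6 it was 13.3, 13.7, 14.7, 15.0 and 13.8 FPKM. The groups did not overlap, with the highest saline value in replicate 4. The StcE mean was 76.4% of the saline mean, a log2 difference of -0.37 with a standard error of 0.0468, and 59 of the 11062 tested genes had a lower one.

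The transporters were also compared within samples. The ratio of Abca1 to Abcg1 within a sample was 0.218 ± 0.0227 (SD, n = 5) with saline and 0.140 ± 0.0351 with StcE. It overlapped between the groups, since StcE replicate 6 was at 0.193 and saline replicate 5 at 0.180. Its size depends on the length used for Abcg1, whereas the overlap does not. The ratio of Abca1 to Abca2, in contrast, did not overlap, at 0.565 to 0.739 with saline and 0.284 to 0.482 with StcE. StcE replicate 6 and saline replicate 5 were the extremes of Abca1 toward the other group, whereas their Abcg1 levels of 13.8 and 18.2 FPKM were the medians of their groups.

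**Figure D2:**
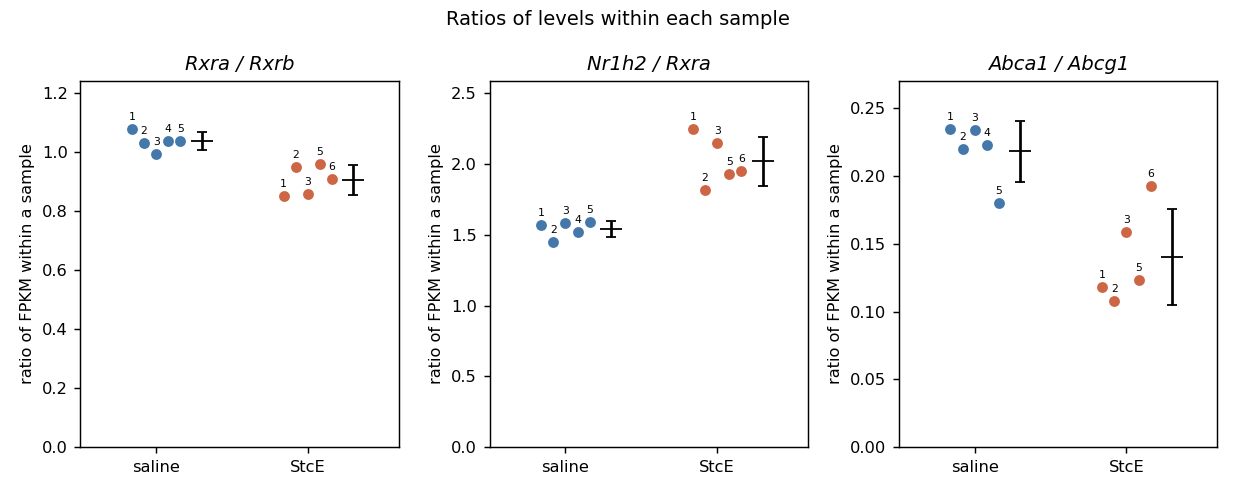
Ratio of FPKM within each sample for Rxra to Rxrb, Nr1h2 to Rxra and Abca1 to Abcg1. Points are samples labelled by replicate number, blue for saline and red for StcE, with the mean and SD (n = 5) in black; the first and second ratios do not overlap between groups, and the third does, with StcE replicate 6 at 0.193 above saline replicate 5 at 0.180. The sizes of the ratios to Rxrb and to Abcg1 depend on the gene lengths used for these genes.

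Lpcat3 encodes an acyltransferase that places polyunsaturated chains into membrane phospholipids, and lies on chromosome 6 (124663027 to 124704418, plus strand). Its level was 11.7 to 13.0 FPKM with saline and 11.5 to 12.6 FPKM with StcE. The groups overlapped, and the log2 difference of -0.02 was smaller than its standard error of 0.0354. Of its exon length, 10.2% overlaps Emg1 on the opposite strand.

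Arl4c encodes a small GTPase linked to the movement of cholesterol to the plasma membrane, and lies on chromosome 1 (88673125 to 88702221, minus strand). In saline replicates 1 to 5 its level was 11.0, 10.5, 10.1, 10.1 and 10.7 FPKM. In StcE replicates 1, 2, 3, 5 and 6 it was 9.84, 9.86, 9.11, 9.83 and 9.66 FPKM. The groups did not overlap, but the gap between the highest StcE sample and the lowest saline samples was small. The StcE mean was 92.2% of the saline mean, a log2 difference of -0.11 with a standard error of 0.0318, and 1372 tested genes had a lower one.

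**Figure D3:**
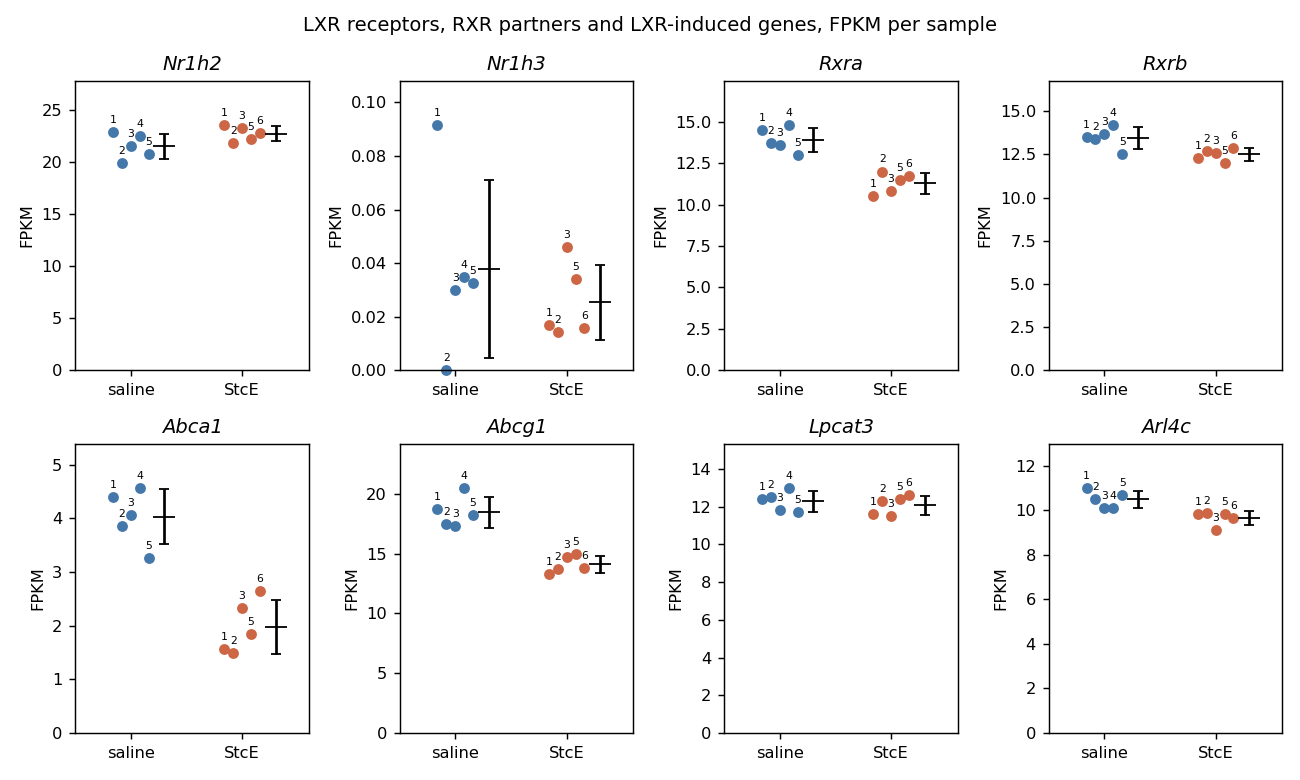
FPKM of the 8 members in each sample, with an own vertical axis from 0 for each gene. Points are samples labelled by replicate number, blue for saline and red for StcE, and black marks give the mean and SD (n = 5); Abca1, Abcg1, Rxra and Arl4c do not overlap between groups, and Nr1h3 stays under 0.1 FPKM.

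For 4 of the 8 members (Rxra, Abca1, Abcg1 and Arl4c) the StcE values were all below the saline values, and for 0 they were all above. Over the 11062 tested genes this was so for 5.80% in the lower direction and 4.85% in the higher. Nothing is read from the members' count, since they were chosen with the contrast known. The values of the other 4 members (Nr1h2, Nr1h3, Rxrb and Lpcat3) overlapped between the groups.

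The order of mean FPKM with saline was Nr1h2, Abcg1, Rxra, Rxrb, Lpcat3, Arl4c, Abca1 and Nr1h3. The ranges of Nr1h2 and Abcg1, of Rxra and Rxrb, and of Rxrb and Lpcat3 overlapped, and the other neighbours in this order were apart. With StcE, Rxra stood after Lpcat3, and the ranges of Rxrb and Lpcat3 and of Lpcat3 and Rxra overlapped. The places of Abcg1 and Rxrb depend on the lengths used for them. For Abcg1, the shortest length that makes the 10 values whole fragments is 4066 bases, against 7298 bases for the union of its annotated exons. Per the longer length, its mean would be 10.3 FPKM with saline and 7.85 with StcE. For Rxrb these lengths are 3698 and 3973 bases, and per the longer one its mean would be 12.5 and 11.6 FPKM, so that with StcE it would stand after Lpcat3.

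Among the transporters of the ABCA and ABCG families, 8 of 20 measured genes had a mean FPKM of at least 1. Apart from the members, 1 of the other 6, Abca3, a lipid transporter best known from lung surfactant, was lower past the threshold. It went from 11.9 ± 0.588 to 10.3 ± 0.514 FPKM (SD, n = 5 each), a log2 difference of -0.19 with a limma adjusted p of 0.010, and all 5 StcE samples lay below the saline samples. Another gene covers 9.75% of its exon bases from the other strand. The log2 differences of Abca2, Abca4, Abca5, Abca7 and Abcg2 were -0.14, 0.07, -0.09, 0.05 and 0.02, with limma adjusted p between 0.082 and 0.71. Abca2 passed the threshold without saline replicate 2 (0.0497) and with voom on recovered fragments (0.038), and its adjusted p was 0.038 to 0.20 over the alternatives. Abcg2, a drug efflux transporter of the blood-brain barrier, was at 5.96 ± 0.311 FPKM in saline samples and 6.07 ± 0.166 in StcE samples. With saline, Abca1 ranked sixth of the 8 by mean FPKM, above Abca5 at 2.09 FPKM, and its range did not overlap that of Abca5. With StcE it was at 1.98 FPKM, and its range overlapped that of Abca5 at 1.90 FPKM. The other 12 family members measured, among them Abcg4, Abcg5 and Abcg8, had means under 0.1 FPKM in both groups.

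**Figure D4:**
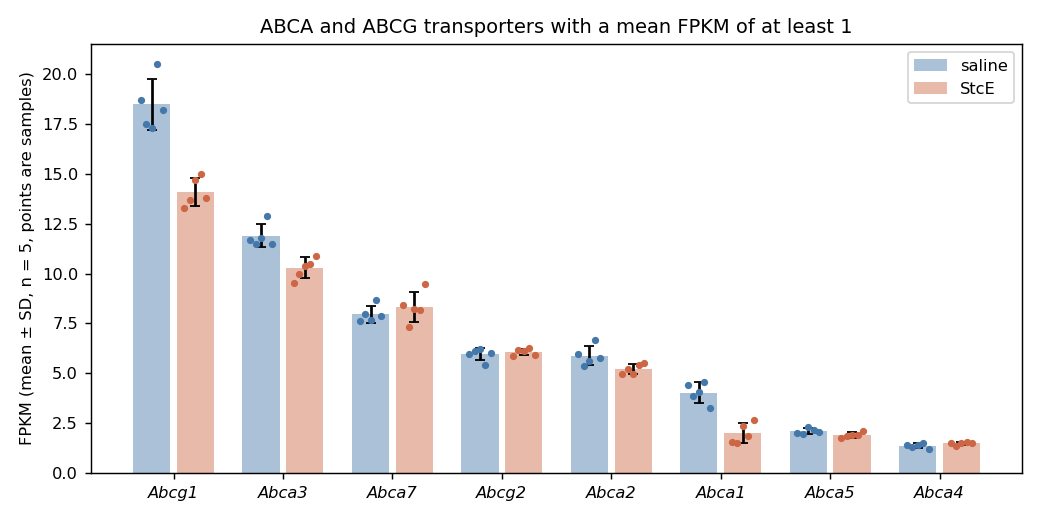
Mean FPKM of the 8 ABCA and ABCG transporter genes with a mean of at least 1, with saline (blue) and StcE (red). Bars start at 0, error bars are SD (n = 5) and points are samples; Abcg1, Abca3 and Abca1 are lower in every StcE sample than in every saline sample.

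Over 6 further lists of genes around LXR, 42 of the 64 measured genes could be tested, and 6 were lower and 5 higher with StcE past the threshold. The background was 6.41% of all tested genes lower and 5.52% higher. Without StcE replicate 3, 3 of the listed genes were lower and 5 higher, and over all genes the lower ones went from 709 to 409 and the higher ones from 611 to 384. The lists were also chosen with earlier results of these data known. The median log2 difference was -0.04 over the 42 genes and -0.001 over all tested genes.

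Of the other LXR-induced genes of sterol export and lipoproteins, 5 could be tested, with 2 lower, 0 higher and a median log2 difference of -0.05. Smpdl3a, which encodes a phosphodiesterase related to acid sphingomyelinase, was at 7.79, 6.99, 7.82, 7.45 and 7.55 FPKM in saline replicates 1 to 5. In StcE replicates 1, 2, 3, 5 and 6 it was at 6.01, 5.52, 5.75, 5.95 and 7.14 FPKM. The groups overlapped, because StcE replicate 6 reached the level of the saline samples, and this replicate was also the highest StcE sample for Abca1. Smpdl3a fell with a log2 difference of -0.27 (limma adjusted p = 0.0089), and the call held in all 22 alternative fits. Rnf145, a ubiquitin ligase gene whose promoter stretch is shown above, went from 22.0 ± 0.875 to 19.8 ± 1.25 FPKM, a log2 difference of -0.15 (limma adjusted p = 0.041). That call was lost without any 1 of saline replicates 1, 2, 3 or 4 or StcE replicates 1, 3 or 6, where the adjusted p was 0.061 to 0.10, and over all alternatives it was 0.016 to 0.23. Mertk, a receptor for the uptake of dying cells, was at 54.9 ± 1.67 and 53.4 ± 3.01 FPKM (limma adjusted p = 0.52).

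Apoe, an acceptor of effluxed cholesterol in the brain, was at 2.03 ± 0.236 FPKM in saline samples and 2.58 ± 0.437 in StcE samples, a log2 difference of 0.24 that did not pass the threshold (limma adjusted p = 0.086). It did so without StcE replicate 2 (0.046), and the adjusted p was 0.046 to 0.23 over the alternatives. Pltp, a phospholipid transfer protein gene, was at 1.42 ± 0.188 and 1.35 ± 0.205 FPKM (limma adjusted p = 0.72). The remaining 7 measured genes of the list were below the minimum for testing, with Mylip, which encodes a ubiquitin ligase for the LDL receptor, the highest at 0.333 ± 0.0707 FPKM with saline and 0.256 ± 0.0750 with StcE. The levels of Apoc1, Apoc2 and Cd5l were not analysed here.

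LXR-induced genes of lipogenesis are induced by SREBP transcription factors as well. Of 4 tested genes, 3 rose and 0 fell, with a median log2 difference of 0.39. Scd1, a stearoyl-CoA desaturase gene, was at 4.59, 4.41, 4.62, 4.19 and 4.12 FPKM in saline replicates 1 to 5 and at 7.98, 8.71, 9.27, 8.07 and 9.59 FPKM in StcE replicates 1, 2, 3, 5 and 6. The StcE mean was 198.9% of the saline mean without overlap, a log2 difference of 0.85 (limma adjusted p = 9.2e-07). Scd2, its relative that is prominent in brain, rose from 66.4 ± 3.27 FPKM to 143.0% of that mean, also without overlap, a log2 difference of 0.51 (limma adjusted p = 1.7e-05).

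Fasn, the fatty acid synthase gene whose window shares its 16 letters with that of Abca1, was at 68.9, 59.8, 64.1, 71.0 and 62.0 FPKM in saline replicates 1 to 5. In StcE replicates 1, 2, 3, 5 and 6 it was at 70.4, 82.3, 76.6, 80.4 and 85.2 FPKM. The groups overlapped by the single StcE replicate 1, which lay below saline replicate 4. Fasn rose with a log2 difference of 0.27 and a standard error of 0.0570 (limma adjusted p = 0.011). Srebf1, which encodes SREBP-1 and has the same repeat units, was at 19.2 ± 0.874 FPKM in saline samples and 20.9 ± 1.10 in StcE samples, a log2 difference of 0.12 that was not past the threshold (limma adjusted p = 0.080) but passed it with total fragment scaling (0.043) and voom (0.044), in a range of 0.043 to 0.21. Of the 3 genes with these repeat units in their windows, Abca1 was thus lower, Fasn higher, and Srebf1 near the threshold on the higher side. The Srebf1 match lies before a start inside the gene, whereas its FPKM cover the whole gene. Transcripts from that start were not measured apart, and whether the matches have a part in these levels was not tested.

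The coregulators of LXR examined were all abundant enough to test. Of 13 genes, 1 fell and 0 rose, with a median log2 difference of -0.06. The one past the threshold was Tbl1xr1, a subunit of corepressor complexes, with 3.69 ± 0.245 FPKM with saline and 3.17 ± 0.0775 with StcE, no overlap and a log2 difference of -0.17 (limma adjusted p = 0.021). Without StcE replicate 3 the adjusted p was 0.053, and over the alternatives 0.0051 to 0.16. The most abundant of the others given here were Tbl1x at 20.1 ± 0.667 and 19.1 ± 0.375 FPKM, Gps2 at 15.4 ± 1.21 and 15.0 ± 1.03, and Ncor1 at 15.4 ± 0.814 and 14.7 ± 0.974. Their limma adjusted p were 0.14, 0.68 and 0.42.

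Of the other partners of RXR, 7 could be tested, with 2 lower, 0 higher and a median log2 difference of -0.08. Both that fell were peroxisome proliferator-activated receptors. Pparg, which encodes PPARγ, was at 6.27, 6.54, 5.99, 6.04 and 5.77 FPKM in saline replicates 1 to 5 and at 4.53, 4.97, 4.36, 5.02 and 4.78 FPKM in StcE replicates 1, 2, 3, 5 and 6. The groups did not overlap, and the log2 difference was -0.31 (limma adjusted p = 7.5e-04), close in size to that of Rxra. Ppard, which encodes PPARδ, fell from 6.38 ± 0.280 to 5.51 ± 0.0848 FPKM without overlap, a log2 difference of -0.18 (limma adjusted p = 0.0036). The retinoic acid receptor genes Rarg and Rara and the orphan receptor gene Nr4a1 had log2 differences of -0.08, 0.00 and -0.02, with limma adjusted p of 0.083, 0.96 and 0.79. Rarg was past the threshold without StcE replicate 2 (0.031), with an adjusted p of 0.031 to 0.22 over the alternatives.

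Of 7 enzymes that make or remove sterol ligands of LXR, 1 was abundant enough to test. Ch25h, which encodes the enzyme of 25-hydroxycholesterol synthesis, had 48.0 ± 2.25 FPKM with saline and 49.6 ± 2.33 with StcE (log2 difference 0.05, limma adjusted p = 0.46). Cyp39a1 and Cyp27a1 were at 0.364 and 0.308 FPKM with saline and at 0.313 and 0.280 with StcE, below the minimum for testing.

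Of the genes for sterol acceptors, traffic and storage, 12 of 15 could be tested, with 1 lower, 2 higher and a median log2 difference of 0.00. Stard4, which encodes a carrier of cholesterol between membranes, rose from 17.3 ± 0.163 to 25.5 ± 0.349 FPKM without overlap, a log2 difference of 0.53 (limma adjusted p = 9.2e-09). Scarb1, the gene of the high density lipoprotein receptor SR-BI, went from 9.35 ± 0.297 to 10.3 ± 0.331 FPKM without overlap, a log2 difference of 0.12 (limma adjusted p = 0.023). That call was lost without saline replicate 2 (0.0505) or saline replicate 4 (0.053), and the adjusted p was 0.011 to 0.21 over the alternatives. Lipa, the gene of lysosomal acid lipase, went from 32.6 ± 0.712 to 30.3 ± 1.10 FPKM, a log2 difference of -0.10 (limma adjusted p = 0.037), with overlap. Its call was lost without any 1 of saline replicates 1, 2, 3 or 4 or StcE replicates 1, 3, 5 or 6, where the adjusted p was 0.071 to 0.091, and over all alternatives it was 0.0086 to 0.18. The sterol carriers Npc2 and Osbp and the membrane contact gene Gramd1a were not past the threshold, with log2 differences of 0.05, -0.05 and 0.06 and limma adjusted p of 0.38, 0.37 and 0.55.

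**Figure D5:**
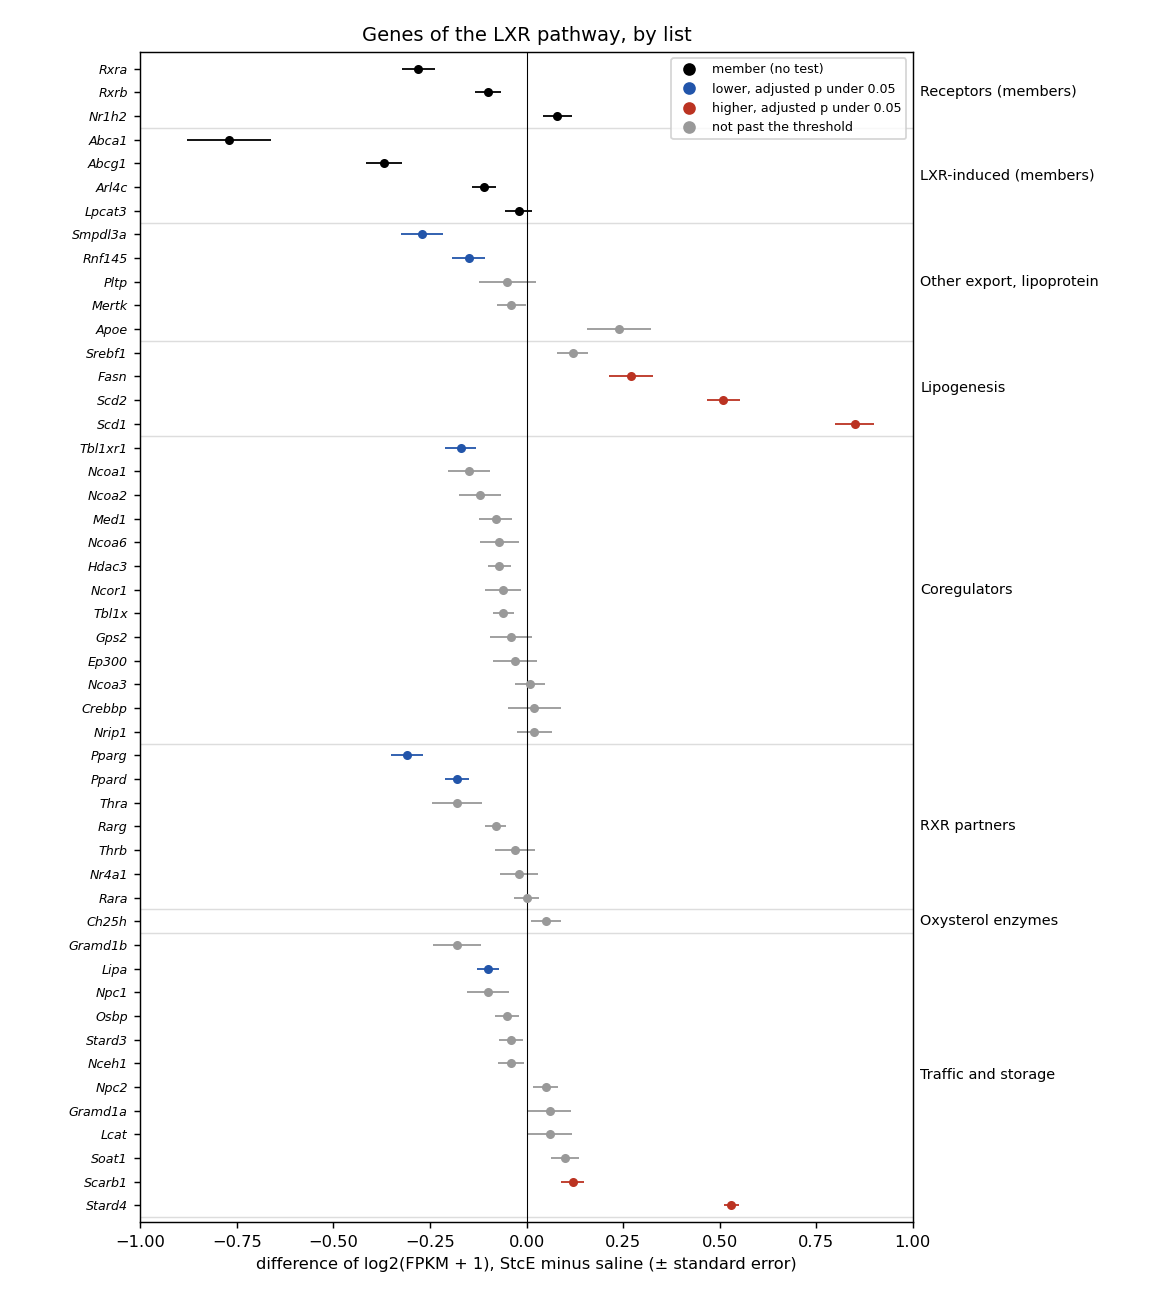
Difference of log2(FPKM + 1), StcE minus saline, for the tested genes of the member and pathway lists, with its standard error. Black points are members, which carry no test, and blue and red points are genes lower or higher past the threshold; Abca1 at -0.77 is the lowest and Scd1 at 0.85 the highest of the genes drawn, and the genes of lipogenesis lie above 0.

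Abca1 varied more between the samples of a group than the other tested members did, with a pooled SD of 0.20 in log2(FPKM + 1) against at most 0.08 for the others. After subtraction of the group mean, its log2(FPKM + 1) ran from -0.23 (replicate 5) to 0.15 (replicate 4) with saline and from -0.24 (replicate 2) to 0.31 (replicate 6) with StcE. Over these deviations in 10 samples, the genes most like Abca1 were Chd3 (Pearson r = 0.94, Spearman rho = 0.90), 4930578C19Rik (0.94 and 0.90), Adamts9 (0.94 and 0.88), Helz2 (0.93 and 0.93) and Zswim6 (0.93 and 0.88). They are the 5 highest of 11061 genes, the points of each pair come from the same libraries, and no p is given. Their own log2 differences between the groups were -0.16, -0.03, -0.01, -0.06 and 0.06, with limma adjusted p of 0.099 to 0.97. Chd3 was past the threshold without StcE replicate 6 (0.027), in the 8 samples whose replicate number is in both groups (0.0498) and with voom (0.041), with an adjusted p of 0.027 to 0.25 over the alternatives. Among the members, the likeness to Abca1 was r = 0.63 for Rxrb, 0.47 for Nr1h2, 0.39 for Abcg1, 0.38 for Lpcat3, 0.36 for Rxra and -0.45 for Arl4c. Rxrb stood at place 820 of the 11061 genes, and the other tested members came after it. Scd1, which rose with StcE, stood at place 536 (r = 0.70).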

How the data were processed

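Poly-adenylated RNA of 10 bEnd.3 samples was sequenced as strand-specific read pairs. The submitters' processing notes name HISAT2 2.0.5, featureCounts 1.5.0-p3 and DESeq2 1.32.0, and the build was GRCm38. The annotation release and the strand setting of the counting are not given in the sources used here. The authors deposited FPKM per sample. Multiplied by gene length in GENCODE vM21, 96.6% of the values above 0 were whole fragments (within 0.05). For 618 genes, Abcg1 and Rxrb among them, the shortest length that made all 10 values whole was used. The FPKM scale of each sample followed its median-ratio size factor (deviations up to 0.0233%), so the deposited FPKM were already normalised between samples.

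The 11062 genes whose FPKM averaged 1 or more were fitted as log2(FPKM + 1) in limma 3.58.1 under R 4.3.3. The model held only the condition (lmFit, then eBayes with a trend), and p-values were adjusted by Benjamini-Hochberg with a threshold of 0.05. Since the labels do not say that samples came from separate cultures, p-values measure only the spread between these samples, which may be technical. Pairs of replicates differed by more than sampling noise (chi-square per degree of freedom 3.17 to 9.32). Intervals from fragment numbers were not used, and 3 fragments on 1 kilobase equal 0.0857 to 0.131 FPKM.

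The members and all lists were chosen with earlier results of these data known. Named are the 8 members; each gene of the pathway lists past the threshold and up to 3 further genes per list with the highest mean FPKM; ABCA and ABCG genes above the same minimum; the 5 genes most like Abca1; and markers by list, with the most abundant gene of each. The results of 2 genes that fall under this rule are not reported here, and all counts of the lists leave them out. Mylip, Abcg4, Abcg5 and Abcg8 were named after their values were seen. Stretches of 150 bases or more with 95% identity to a different gene were sought by BLAST 2.17.0. Of the members, Lpcat3 had one over 12.1% of its transcript and the other 7 had none. Among other named genes the share was 96.0% for Lyz2, 14.2% for Pltp, 11.5% for Ch25h, 11.4% for Scd2 and 10.7% for Abca3. The test was tried on simulated data. Alternatives were a pseudocount of 0.1, a mean FPKM of at least 0.1, no filter, median ratio, upper quartile and total fragment scaling, eBayes without trend and with robust, array weights, a block for replicate number, the same 8 samples without that block, each sample left out, and voom on the recovered fragments. The DR4 search with 3 mismatches and the searches for the letters of the Abca1 match were added after the sequences were seen.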

Additional observations from a re-analysis of the deposited data

Results flagged for a closer look

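A sample lay apart from the rest of its group in 7 of the 112 groups of 5 samples examined, where chance gives about 1 in 20, or 5.60. Among the members this was so for Arl4c, with 9.11 FPKM for StcE replicate 3 and 9.66 to 9.86 for the other StcE samples. Saline replicate 5 had 31.3 FPKM of Lipa (the others 32.8 to 33.1) and 125.9 FPKM of the endothelial marker Tie1 (135.4 to 139.0). StcE replicate 2 had 32.2 FPKM of Lipa (29.5 to 30.2) and 267.1 FPKM of the endothelial marker Cldn5 (320.3 to 335.5). StcE replicate 1 had 33.2 FPKM of Npc2 (30.9 to 31.6), and saline replicate 4 had 12.9 FPKM of Abca3 (11.5 to 11.8).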

How the results depend on the processing

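The 7 tested members kept the sign of their log2 difference in the 154 refits (22 alternatives for each), and in 152 of these the difference moved by less than 1 SD of the replicates. The 2 others were for Abca1, at -1.02 with a pseudocount of 0.1 and -1.05 with voom on recovered fragments, where a pseudocount of 1 no longer shrinks a low level. The other filters, eBayes without trend and robust eBayes cannot change a difference, since each gene keeps its values and model. The replicate block gives the same difference as its 8 samples without the block. Nothing is read from the sameness of these refits. Over the 10 fits that each left out 1 sample, Abca1 was at -0.84 to -0.71, Abcg1 at -0.39 to -0.33, Rxra at -0.30 to -0.26 and Arl4c at -0.12 to -0.09. Nr1h3 was below the minimum in all fits but the one with no filter, where it was at -0.02.

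Past the threshold were 1320 genes (709 lower, 611 higher). With no filter, 801 of the 27024 genes passed (409 lower, 392 higher). Leaving out 1 sample gave 793 to 1255 (409 to 667 lower, 384 to 588 higher), with 793 without StcE replicate 3 and 838 without saline replicate 1. Of the pathway genes 6 were lower, but 3 with no filter and 3 to 7 when 1 sample was left out, with 3 without StcE replicate 3. The cause was not tested. Of the 12 named genes past the threshold outside the members and markers, Smpdl3a, Scd1, Scd2, Pparg and Stard4 stayed past it in all 22 alternatives, and none of the 12 changed sign.

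A block for replicate number, possible over 8 samples, left 349 genes past the threshold (162 lower, 187 higher), with 2 lower and 3 higher genes of the pathway lists, against 6 and 5. Without the block these 8 samples gave 452 lower genes, 3 of them in the pathway lists. The numbers did not pair the samples: same-numbered samples correlated at -0.097 to 0.054 in their deviations, and 0 of 8 correlated best with their own number. A loss under the block is therefore not read as a weaker effect, as for Fasn (0.088), Ppard (0.088), Abca3 (0.058), Tek (0.080), Tie1 (0.073) and Flt1 (0.068), which lost their calls there alone. With 3 mismatches allowed, 6 of the listed genes held the DR4 motif, against 0 with 2.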
